A study of Mus musculus with 6 samples.

Results

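The 10 genes described here are Hox genes that mark position along the colon. They are Hoxa5, Hoxa7, Hoxb6, Hoxb7 and Hoxb8, called anterior below, and Hoxa9, Hoxb13, Hoxd10, Hoxd11 and Hoxd13, called posterior. The genes were taken by name from a list, 8 by the symbol in the authors' deposited table and 2, Hoxd10 and Hoxd11, by Ensembl identifier, and make up 10 of the 39 Hox genes and of 46078 gene rows in the count table. All 10 passed the filter on low counts that left 16757 genes for testing. The libraries hold total RNA of the epithelial fraction that an EDTA and DTT wash releases from mouse colon. There were 3 libraries of wild type mice and 3 of mice labelled Lingo2-/-, called mutant here, all from animals aged 2 months kept without challenge. The labels name no strain, promoter or allele design for the mutant, and do not say that replicates were separate animals, so the spread behind each p-value may be technical. They also do not say which stretch of the colon was washed for each library.

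Hox genes encode homeodomain transcription factors that give cells their position along the body axis. They lie in 4 clusters, and the order of genes in a cluster, numbered as paralog groups, follows the order of the body regions in which they act, from head to tail. In the gut both the epithelium and the mesenchyme beneath it keep regional Hox expression into adult life, and genes of the highest paralog groups, such as Hoxb13, mark the distal large intestine. In bulk RNA a larger share of distal tissue and more RNA of a distal gene per cell cannot be told apart.

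The members differ in the homeobox, the stretch that encodes the DNA-binding domain, and the sequences are shown to let a reader see how far the genes can be told apart. Each homeobox is 60 codons (180 bases) long, from GENCODE M21 transcripts (GRCm38), 5′ to 3′. Capitals mark the 6 codons of the recognition helix motif by which the homeobox was located. Hoxb6 and Hoxb7 are neighbours in the Hoxb cluster, Hoxa5 is the anterior gene that differed by genotype, and Hoxb13 and Hoxd13 are the most posterior members.
Hoxa5: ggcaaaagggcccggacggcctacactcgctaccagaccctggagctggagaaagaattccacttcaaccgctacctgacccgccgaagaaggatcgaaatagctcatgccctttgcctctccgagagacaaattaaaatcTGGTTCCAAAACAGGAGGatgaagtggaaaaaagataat
Hoxb6: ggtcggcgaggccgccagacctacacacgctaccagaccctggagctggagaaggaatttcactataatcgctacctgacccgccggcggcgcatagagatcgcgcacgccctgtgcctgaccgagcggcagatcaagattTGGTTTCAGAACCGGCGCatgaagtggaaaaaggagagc
Hoxb7: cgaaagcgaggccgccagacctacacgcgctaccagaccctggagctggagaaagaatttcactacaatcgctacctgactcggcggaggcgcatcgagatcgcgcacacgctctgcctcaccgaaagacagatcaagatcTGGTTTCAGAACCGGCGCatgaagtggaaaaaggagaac
Hoxb13: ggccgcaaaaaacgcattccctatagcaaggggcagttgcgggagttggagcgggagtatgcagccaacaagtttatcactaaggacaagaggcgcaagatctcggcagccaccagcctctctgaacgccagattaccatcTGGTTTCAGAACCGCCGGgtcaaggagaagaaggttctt
Hoxd13: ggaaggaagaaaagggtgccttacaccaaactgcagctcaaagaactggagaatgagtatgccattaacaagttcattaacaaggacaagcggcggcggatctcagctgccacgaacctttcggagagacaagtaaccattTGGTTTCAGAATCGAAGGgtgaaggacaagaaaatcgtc
Hoxb6 and Hoxb7 shared 88.9% of homeobox bases, Hoxb13 and Hoxd13 67.2%, and Hoxb6 and Hoxb13 51.7%. Identity ran from 73.9% to 88.9% over the 10 pairs of anterior members, from 53.3% to 72.8% over the 10 posterior pairs and from 48.3% to 66.1% over the 25 mixed pairs. The ranges of posterior and mixed pairs overlapped, so homeobox identity alone did not separate the classes: the mixed pair Hoxa7 and Hoxa9 shared 66.1% and the posterior pair Hoxb13 and Hoxd10 53.3%. The longest run of identical bases between transcripts of any 2 members was 37 bases, between Hoxb6 and Hoxb7. Exons of Hoxb6, Hoxb7, Hoxb8, Hoxb13, Hoxa5 and Hoxd13 overlapped no exon of another annotated gene. The antisense gene Hoxaas3 covered 20.4% of the exon bases of Hoxa7, and Gm28309 on the same strand covered 5.73% of Hoxd10 and 10.8% of Hoxd11. The microRNA Mir196b covered 1.52% of Hoxa9. The libraries were made with a stranded kit, but whether the counting used strand is not given in the sources used here. The reads of Hoxa7 are therefore uncertain by that overlap. Hoxaas3 was itself higher in each mutant library than in each wild type library (0.40 ± 0.16, edgeR adjusted p = 0.213), the direction of Hoxa7, and its part in the Hoxa7 value was not tested.

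Hoxb13 and Hoxb6, the most abundant posterior and anterior genes, spread more widely among the wild type libraries than between the genotype means. Wild type replicate 1 had the most Hoxb13 and the least Hoxb6 of all 6 libraries, and wild type replicate 2 had the least Hoxb13. Of the 10 genes, 1 passed the test between genotypes, Hoxa5, which was higher in mutant libraries by about 1 log2 unit. Over all genes 2.57% were called by edgeR's quasi-likelihood F test, and 1.04% were called higher in the mutant, where a call is a Benjamini-Hochberg adjusted p under 0.05. The threshold is the same in every edgeR call below. The median log2 fold change of the 10 genes was 0.24, against 0.00098 over all genes tested.

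Lingo2, the targeted gene, was at 0, 7 and 0 reads in wild type and at 1, 1 and 0 reads in mutant replicates 1, 2 and 3, too few to check the labels. Each wild type library held between 25010618 and 28029583 gene reads and each mutant library between 7060769 and 13047682. The same Hox level therefore rests on fewer reads in a mutant library than in a wild type library. Levels are in CPM, reads scaled to a common library size with TMM factors. Reads on the 10 genes numbered 2308 to 2730 per wild type library and 939 to 1799 per mutant library. Summed over the 10 genes, wild type libraries had 106 ± 16.7 CPM (SD, n = 3) and mutant libraries had 120 ± 3.57 CPM. Intervals given for 1 library cover counting error only.

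Per length of exon, in RPKM, Hoxb13 stood highest in wild type libraries at 19.6 ± 10.1 RPKM, followed by Hoxb6 at 10.3 ± 4.19 RPKM. The ranges of these 2 genes over the wild type libraries overlapped. Hoxa7 came next at 3.82 ± 0.133 RPKM, clear of the genes on either side. The range of Hoxa5 (2.72 ± 0.103 RPKM) overlapped with those of Hoxb7 above it (2.84 ± 0.565 RPKM) and Hoxa9 below it (2.57 ± 0.279 RPKM). Clear of Hoxa9 and below it stood Hoxb8 at 1.35 ± 0.344 RPKM and Hoxd13 at 1.13 ± 0.965 RPKM, which overlapped. Hoxd10 (0.383 ± 0.193 RPKM) and Hoxd11 (0.253 ± 0.0658 RPKM) were lowest, with 7 to 30 reads per wild type library and 8 to 23 per mutant library.

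Hoxb13 (chr11:96194316-96197447, plus strand, GRCm38), the last gene of the Hoxb cluster and a marker of the distal colon, had 67.7, 24.5 and 37.1 CPM in wild type replicates 1, 2 and 3. It had 37.3, 29.5 and 45.7 CPM in mutant replicates 1, 2 and 3. The mutant libraries all lay inside the wild type range, and wild type replicate 1 exceeded replicate 2 by 1.47 log2 units. The genotype difference was −0.20 ± 0.43 on the log2 scale (SE, edgeR adjusted p = 0.850), and it was 0.28 without wild type replicate 1.

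Hoxd13 (chr2:74668310-74671599, plus strand), its paralog at the end of the Hoxd cluster, had 5.57, 1.57 and 1.28 CPM in wild type replicates 1, 2 and 3 and 4.76, 2.12 and 2.66 CPM in mutant replicates 1, 2 and 3. It was highest in wild type replicate 1, as Hoxb13 was, but mutant replicate 1 came second, where for Hoxb13 it was mutant replicate 3. The difference was 0.27 ± 0.68 (edgeR adjusted p = 0.870), 1.21 without wild type replicate 1 and it took values of −0.037 and −0.069 when wild type replicate 2 or 3 was left out and −0.21 when mutant replicate 1 was. Hoxd10 (chr2:74691924-74695105) had 0.966, 0.820 and 0.298 CPM in wild type and 1.17, 1.12 and 1.04 CPM in mutant replicates 1, 2 and 3. Its groups did not overlap, on 7 to 22 reads per library, and the difference was 0.68 ± 0.42 (edgeR adjusted p = 0.415). Hoxd11 (chr2:74679557-74687016) had 1.38, 0.970 and 0.852 CPM in wild type and 1.59, 0.997 and 0.925 CPM in mutant replicates 1, 2 and 3, with overlapping groups (0.20 ± 0.34, edgeR adjusted p = 0.792).

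Hoxa9 (chr6:52223100-52231089, minus strand), the fifth posterior gene, had 15.5, 12.6 and 14.9 CPM in wild type and 15.7, 24.7 and 19.7 CPM in mutant replicates 1, 2 and 3. The groups did not overlap, but mutant replicate 1 exceeded wild type replicate 1 by less than the counting error, whose 95% exact Poisson intervals were 13.7 to 17.9 and 13.9 to 17.3 CPM. The difference was 0.46 ± 0.16 (edgeR adjusted p = 0.141).

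Among the anterior genes the groups did not overlap for either gene of the Hoxa cluster and overlapped for all 3 of the Hoxb cluster. Hoxa5 (chr6:52201754-52204587, minus strand), which in the embryo patterns the lung, gut and axial skeleton, had 4.88, 5.22 and 5.20 CPM in wild type replicates 1, 2 and 3, on 106, 140 and 122 reads. It had 8.62, 12.96 and 9.14 CPM in mutant replicates 1, 2 and 3, on 125, 104 and 79 reads. Each mutant library lay above each wild type library, mutant replicate 2 furthest. Hoxa5 rose by 0.99 ± 0.18 on the log2 scale (edgeR adjusted p = 0.0126). The authors' deposited table gives a log2 fold change of 1.00 with a standard error of 0.22 and an adjusted p of 0.000314, in a table where 4.71% of 14338 genes are past 0.05. The call ended without mutant replicate 2 (0.79, edgeR adjusted p = 0.0582) and held when any of the other 5 libraries was left out. The mitochondrial share of gene reads was 45.3% to 48.4% in wild type and 35.7% to 39.8% in the mutant, and Hoxa5 was at 0.99 (edgeR adjusted p = 0.0118) with mitochondrial genes left out of the fit.

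Hoxa7 (chr6:52214491-52221854, minus strand) had 11.2, 11.3 and 10.6 CPM in wild type and 13.9, 15.7 and 17.5 CPM in mutant replicates 1, 2 and 3. Its groups did not overlap and the wild type libraries lay within 0.092 log2 units of each other. The difference of 0.51 ± 0.12 did not pass (edgeR adjusted p = 0.0529). It passed without mutant replicate 1 (0.59, edgeR adjusted p = 0.0455) and when no filter on low counts was applied (edgeR adjusted p = 0.0163).

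Groups that did not overlap with the mutant higher were found in 4 of the 10 genes, Hoxa5, Hoxa7, Hoxa9 and Hoxd10, against 12.3% of all genes tested. None of the 10 was lower in that way, against 11.8%.

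Hoxb6 (chr11:96292476-96301569, plus strand), the most abundant anterior gene, had 11.9, 28.3 and 20.6 CPM in wild type and 31.6, 21.6 and 16.9 CPM in mutant replicates 1, 2 and 3. Wild type replicate 1, the library with the most Hoxb13, had the least Hoxb6, and mutant replicate 1 had the most. The groups overlapped, and the difference was 0.22 ± 0.40 (edgeR adjusted p = 0.812), turning to −0.046 when wild type replicate 1 was left out and to −0.087 when mutant replicate 1 was. Hoxb7 (chr11:96286623-96290162) had 3.73, 5.37 and 4.05 CPM in wild type and 5.24, 5.98 and 4.05 CPM in mutant replicates 1, 2 and 3 (0.21 ± 0.21, edgeR adjusted p = 0.632). Hoxb8 (chr11:96281905-96285315) had 2.71, 4.51 and 3.41 CPM in wild type and 4.07, 2.37 and 1.74 CPM in mutant replicates 1, 2 and 3 (−0.32 ± 0.30, edgeR adjusted p = 0.611). Both had overlapping groups, and in wild type both were lowest in replicate 1 and highest in replicate 2, as Hoxb6 was.

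**Figure D1:**
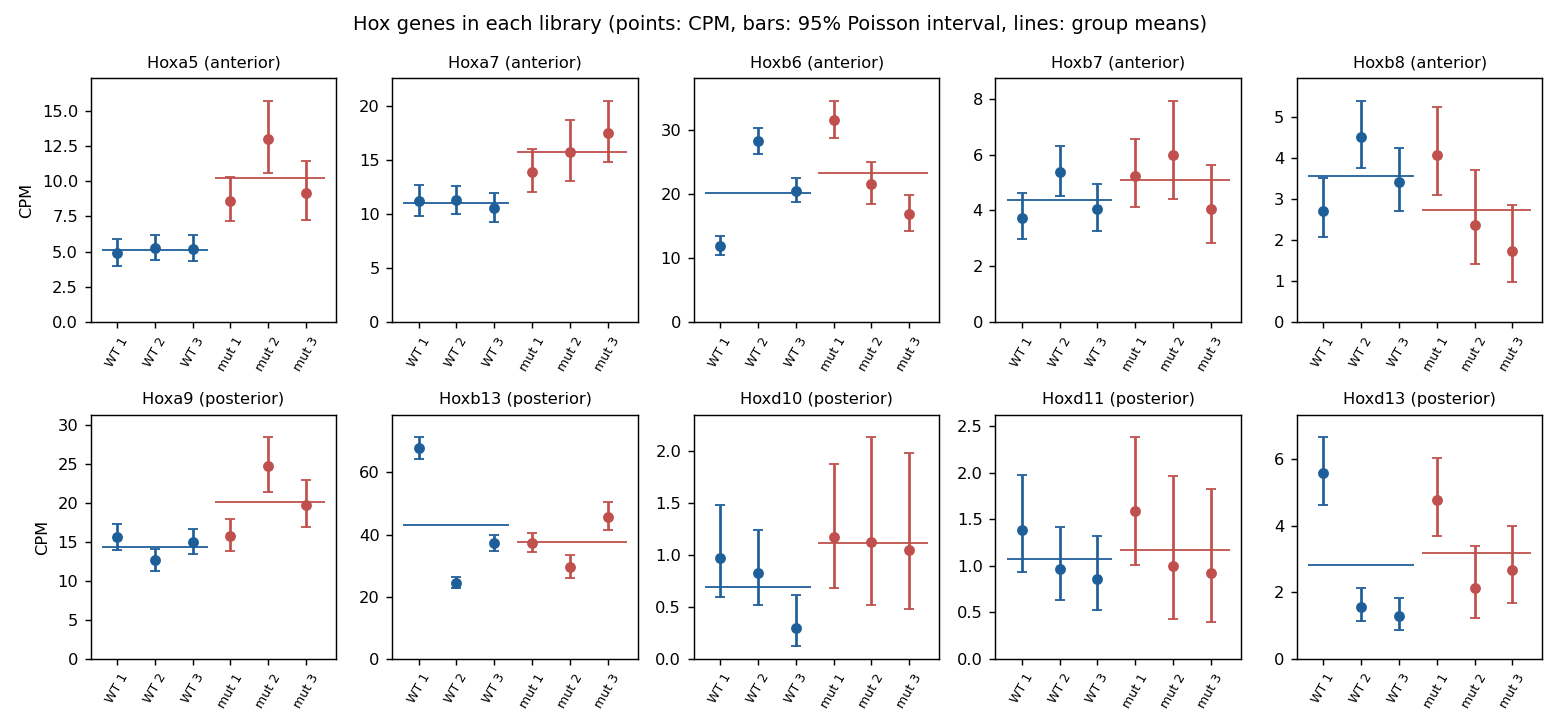
CPM of each of the 10 Hox genes (y axis, from 0) in the 6 libraries (x axis, WT for wild type and mut for mutant replicates), with 95% exact Poisson intervals as bars and group means as lines. Hoxb13 and Hoxb6 spread widely among the wild type libraries in opposite order, while the wild type points of Hoxa5 and Hoxa7 lie together and below every mutant point.

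The share of reads within a library does not move with the scaling between libraries. Posterior genes took 72.6%, 42.6% and 55.5% of reads on the 10 genes in wild type replicates 1, 2 and 3 and 48.8%, 49.9% and 58.7% in mutant replicates 1, 2 and 3. The exact 95% binomial interval was 70.9% to 74.3% for wild type replicate 1 and 40.6% to 44.5% for replicate 2, so these 2 libraries of 1 genotype differed far beyond counting error. The mutant libraries lay between them. By genotype the share was 56.9% ± 15.1 (SD, n = 3) in wild type and 52.5% ± 5.40 in mutant libraries, a difference of −4.41 percentage points that was smaller than the spread in wild type. Leaving out wild type replicate 1 gave a difference of 3.47 points and leaving out replicate 2 gave −11.6 points, so its direction rests on which wild type library is counted. No test was made of this share, since the genes were chosen with results known.

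The posterior share leans on Hoxb13 and Hoxb6, the members with the most reads. In wild type replicate 1 Hoxb13 held 1473 of 1983 posterior reads and Hoxb6 258 of 747 anterior reads. The balance of this pair is therefore not a separate measure from the share. Between Hoxb13 and Hoxb6 alone, Hoxb13 made up 85.1%, 46.4% and 64.4% in wild type and 54.1%, 57.8% and 73.0% in mutant replicates 1, 2 and 3. In reads, Hoxb13 exceeded Hoxb6 by a factor of 5.71 in wild type replicate 1 and fell below it, at 0.867, in replicate 2. With each gene weighted equally, the posterior mean log2 CPM minus the anterior mean was 0.083, −1.27 and −1.16 in wild type and −0.76, −0.98 and −0.56 in mutant replicates 1, 2 and 3. Wild type replicate 1 was here too the library furthest to the posterior side. The genotype means were −0.78 ± 0.75 and −0.77 ± 0.21. The difference of 0.014 became 0.45 when wild type replicate 1 was left out and −0.23 when replicate 2 was.

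Hoxa5 behaved otherwise. It took 5.76%, 8.10% and 7.08% of reads on the 11 genes of the Hoxa cluster in wild type and 11.0%, 12.2% and 9.24% in mutant replicates 1, 2 and 3. The groups did not overlap (6.98% ± 1.17 and 10.8% ± 1.47, SD, n = 3). Exact 95% binomial intervals of the nearest libraries, wild type replicate 2 (6.85% to 9.48%) and mutant replicate 3 (7.38% to 11.4%), overlapped.

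**Figure D2:**
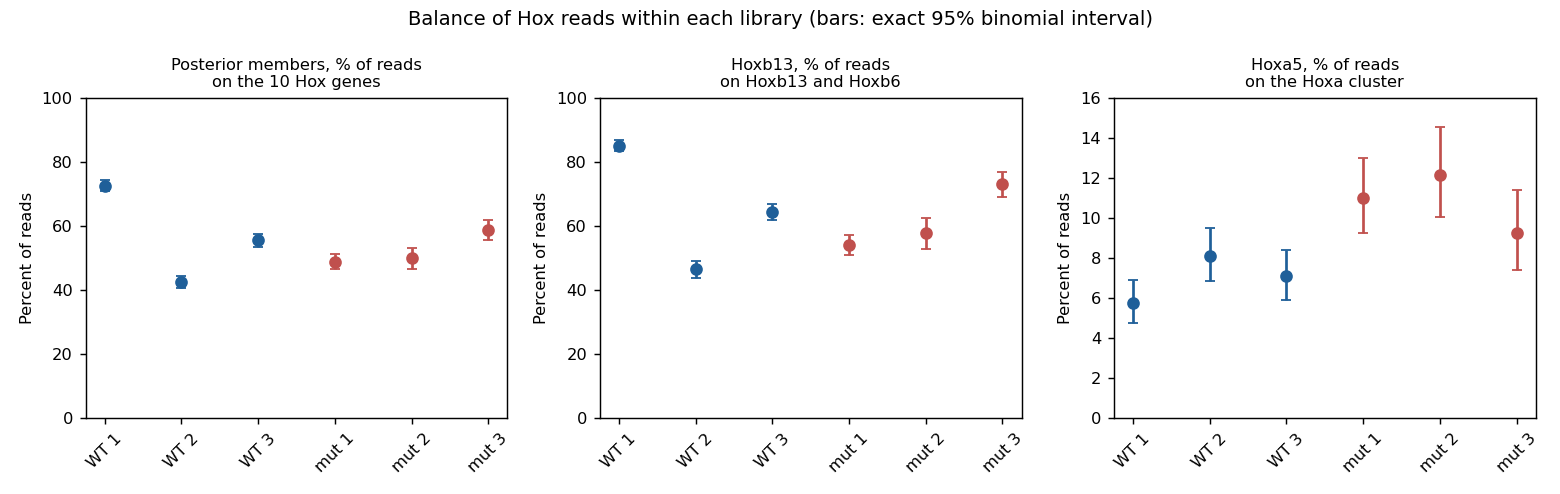
Percent of Hox reads within each library (y axes) for the posterior members among the 10 genes, Hoxb13 among reads on Hoxb13 and Hoxb6, and Hoxa5 among reads on the Hoxa cluster, with exact 95% binomial intervals as bars. In the first 2 panels wild type replicates 1 and 2 lie at opposite ends with the mutant libraries between them, and in the third every mutant library lies above every wild type library.

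The other Hox genes were used to see whether the spread in wild type followed the order of the clusters. Of the 29 others, 15 passed the filter and 14 did not. Wild type replicate 1 was set against replicate 2, the 2 ends of the posterior share, a pair chosen after their values were seen, so the ratios are a description of 2 libraries with counting error only. In the Hoxb cluster the log2 ratio of replicate 1 to replicate 2 was −1.28 for Hoxb3, −0.99 for Hoxb4, −1.30 for Hoxb5, −1.25 for Hoxb6, −0.53 for Hoxb7, −0.73 for Hoxb8, −0.35 for Hoxb9 and 1.47 for Hoxb13. All 8 of these intervals left out 0. The Hoxb genes of groups 3 to 9 were thus lower and Hoxb13 higher in replicate 1.

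In the Hoxa cluster the ratio for groups 2 to 7 had intervals that held 0, with −0.099 for Hoxa5 and −0.011 for Hoxa7. It was 0.30 for Hoxa9, 0.58 for Hoxa10 and 1.19 for Hoxa13, whose intervals left out 0, while that of Hoxa11 (−0.032) did not. In the Hoxd cluster it was −1.07 for Hoxd4 and 1.83 for Hoxd13. Hoxd8 (0.084), Hoxd10 (0.24) and Hoxd11 (0.51) had intervals that held 0, as did Hoxc6 (−0.019) and Hoxc8 (−0.31). All of the tested genes of group 13, Hoxa13, Hoxb13 and Hoxd13, were higher in replicate 1.

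Over the 3 wild type libraries, 7 of 8 tested Hoxb genes were highest in replicate 2 and lowest in replicate 1, an order held by 17% of all genes tested. Hoxb13 alone in that cluster had the opposite order, held by 15.9% of all genes. Both orders were picked after the values were seen, and Hoxb6, Hoxb7, Hoxb8 and Hoxb13 are themselves members. These counts are therefore a description only. In the Hoxa cluster 4 of 10 tested genes had the Hoxb13 order, Hoxa3, Hoxa9, Hoxa10 and Hoxa13, and 1 had the Hoxb6 order, Hoxa5. Among 8168 genes with at least 10 CPM in wild type, only 0.649% had a wider range over the wild type libraries than Hoxb13 (1.46 log2 units) and 1.21% a wider one than Hoxb6 (1.25). The median range of these genes was 0.22, and that of Hoxa7 was 0.092, with 87.7% of genes wider. In the mutant libraries the ranges were 0.63 for Hoxb13, 0.90 for Hoxb6 and 0.32 for Hoxa7.

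**Figure D3:**
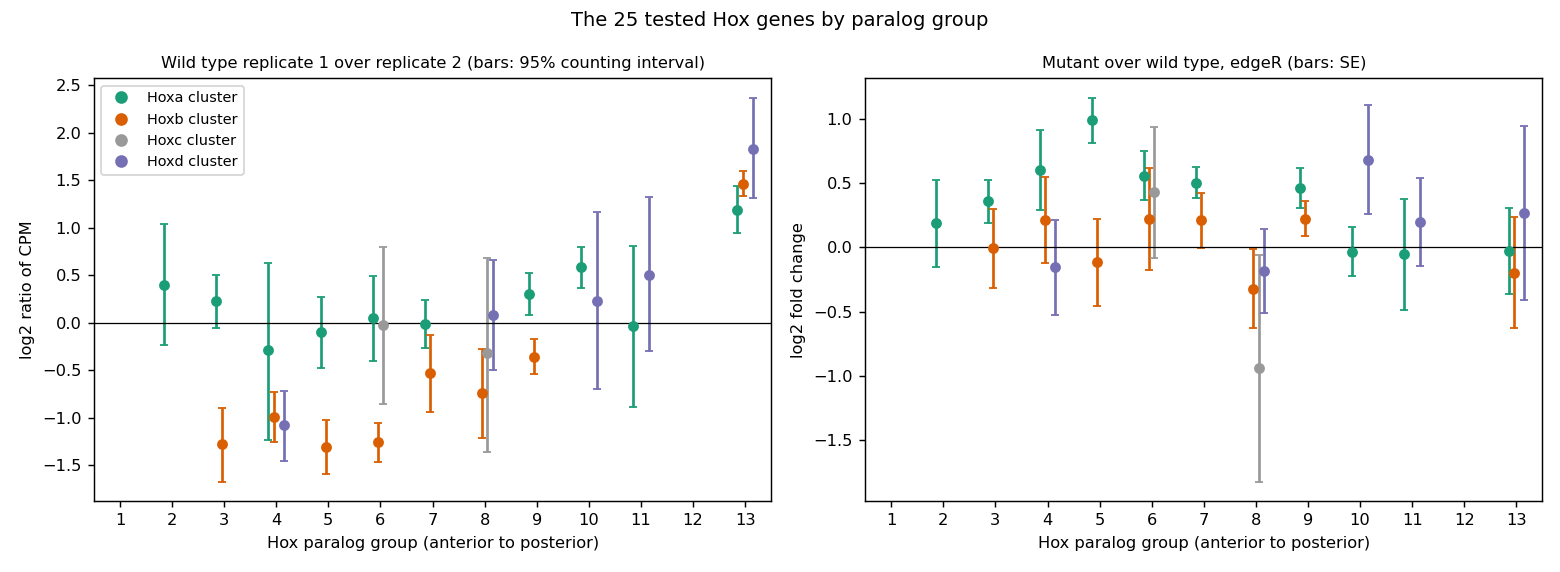
The 25 tested Hox genes by paralog group (x axis) and cluster (colour), with the log2 ratio of CPM of wild type replicate 1 to replicate 2 and its 95% counting interval on the left and the edgeR log2 fold change of mutant over wild type with its SE on the right. On the left the Hoxb genes of groups 3 to 9 lie below 0 and the group 13 genes above it, and on the right Hoxa5 stands highest.

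By genotype none of the 15 other Hox genes passed edgeR, 1 had an unadjusted p under 0.05 and 0 passed the DESeq2 Wald test. Their median log2 fold change was −0.0078. The gene with the unadjusted p under 0.05 was Hoxa6 (0.56 ± 0.19, edgeR adjusted p = 0.140), which lies between Hoxa5 and Hoxa7, and its groups did not overlap (3.64 ± 0.143 and 5.40 ± 0.963 CPM). Hoxa3 (0.36 ± 0.17) and Hoxa4 (0.60 ± 0.31) did not pass (edgeR adjusted p = 0.279 and 0.329). Hoxa4 lies on the other side of Hoxa5, while the annotated span of Hoxa3 (chr6:52169062-52213336) covers Hoxa4, Hoxa5 and Hoxa6. Antisense genes, Hoxaas3 among them, covered 25.4% of the exon bases of Hoxa3. Hoxa2 (0.19), Hoxa10 (−0.034), Hoxa11 (−0.054) and Hoxa13 (−0.027) completed the tested Hoxa genes, and all 4 changed sign without some 1 library. Over the cluster 7 of 10 values lay above 0 with a median of 0.41. In the Hoxb cluster 4 of 8 lay above 0 with a median of 0.10, among them Hoxb9 (0.22), while Hoxb3 (−0.0078), Hoxb4 (0.21) and Hoxb5 (−0.12) changed sign without some 1 library. Hoxd4 was at −0.16, Hoxd8 at −0.18, Hoxc6 at 0.43 and Hoxc8 at −0.94, none past the test. In the Hoxd cluster the median of 5 was 0.20. Whether the Hoxa cluster differed from the Hoxb cluster in its response to genotype was not tested. Hoxc genes took 0.518% to 1.84% of all Hox reads per library, against 30.9% to 45.5% for Hoxa, 48.3% to 60.3% for Hoxb and 4.13% to 6.97% for Hoxd.

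Upstream sequence is shown for Hoxa5 and Hoxa7, the Hoxa members with the smallest p by genotype, as the 250 bases before the start in the RefSeq table (GRCm38.p6), 5′ to 3′ on the gene's strand. The Hoxa7 window lies inside the longer GENCODE span of that gene. Capitals mark matches to TTTATG or its reverse complement CATAAA, the core bound by caudal-type homeodomain proteins such as Cdx2, which act on Hox genes in the embryo.
Hoxa5 (chr6:52204588-52204837, minus strand): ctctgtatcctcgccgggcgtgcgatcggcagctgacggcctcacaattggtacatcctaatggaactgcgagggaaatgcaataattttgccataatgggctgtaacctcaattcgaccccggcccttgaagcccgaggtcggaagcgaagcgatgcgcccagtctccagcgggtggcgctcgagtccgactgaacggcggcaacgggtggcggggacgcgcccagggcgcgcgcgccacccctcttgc
Hoxa7 (chr6:52218574-52218823, minus strand): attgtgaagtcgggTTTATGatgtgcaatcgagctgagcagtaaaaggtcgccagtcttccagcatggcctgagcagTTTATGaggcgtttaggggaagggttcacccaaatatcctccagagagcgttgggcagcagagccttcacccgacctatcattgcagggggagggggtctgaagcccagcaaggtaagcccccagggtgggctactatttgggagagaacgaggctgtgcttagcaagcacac
Hoxa7 had 2 matches and Hoxa5 had 0. Of 32851 windows of this length in the table, 10.8% held the motif on either strand. Hoxb8 also had 2 matches, Hoxd11 had 1 in the first of its 2 windows and 0 in the other, and Hoxa9, Hoxd10 and Hoxd13 had 0. A match is a description of letters and not a binding site. Hoxb6, Hoxb7 and Hoxb13 had no entry.

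No tested regulator or partner of the Hox genes on the lists below passed edgeR. Of 8 tested transcription factors of gut region none passed edgeR, 3 had an unadjusted p under 0.05 and 0 passed the DESeq2 Wald test. Gata4, a factor of the proximal small intestine, was at 0.99 ± 0.38 (edgeR adjusted p = 0.194). Gata4 stood at 0.966, 2.05 and 2.30 CPM in wild type and 2.14, 4.99 and 3.93 CPM in mutant replicates 1, 2 and 3. Of 8 tested TALE cofactors, which bind DNA beside Hox proteins, none passed edgeR and 2 had an unadjusted p under 0.05, Meis1 (−0.83 ± 0.34, edgeR adjusted p = 0.245) and Meis2 (−1.03 ± 0.33, edgeR adjusted p = 0.151), while 1 passed the DESeq2 Wald test. Of 17 tested genes of retinoic acid supply and of chromatin control at Hox clusters none passed edgeR, 4 had an unadjusted p under 0.05 and 0 passed the DESeq2 Wald test. The Polycomb protein gene Bmi1 (−0.53 ± 0.13, edgeR adjusted p = 0.0558) and the retinoid receptor gene Rxra (−0.30 ± 0.088, edgeR adjusted p = 0.101) had the smallest p. Bmi1 passed with upper quartile factors (edgeR adjusted p = 0.0479), without wild type replicate 3 (0.0411) and with no filter (0.00852).

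Other genes of colon region were set beside the Hox genes. Osr2, Scnn1a, Scnn1g and the other list members given here with wild type values only were picked for naming after their values were seen. In wild type, Car1, a carbonic anhydrase of the proximal colon, had 1070, 2264 and 1567 CPM in replicates 1, 2 and 3, and Osr2, a transcription factor listed as proximal, had 13.4, 25.2 and 22.1 CPM. Both were lowest in replicate 1 and highest in replicate 2, in the order of Hoxb6, and they were 2 of 5 tested genes on the proximal list. Of the rest, Mep1b, a brush border protease, had the opposite order (207, 158 and 201 CPM). The ion transporters Slc26a3 (999, 482 and 1083 CPM) and Slc9a3 (158, 131 and 219 CPM) were lowest in replicate 2, where Hoxb6 was highest. On the distal list 4 of 7 tested genes had the order of Hoxb13, highest in replicate 1 and lowest in replicate 2. They were the sodium channel subunit genes Scnn1a (111, 60.5 and 91.7 CPM) and Scnn1g (2.62, 0.298 and 1.15 CPM), Hsd11b2 (36.8, 20.0 and 28.0 CPM), which inactivates glucocorticoids, and Insl5, a hormone of distal colonic enteroendocrine cells (6.95, 3.69 and 3.71 CPM). The other 3 had other orders. Sgk1, an aldosterone-induced kinase gene, was lowest in replicate 1 (166, 209 and 400.0 CPM), Scnn1b was lowest in replicate 3 (6.72, 6.41 and 4.90 CPM), and Nr3c2, the mineralocorticoid receptor gene, was highest in replicate 3 (254, 212 and 260 CPM). The region genes thus did not share 1 order. In the mutant libraries Car1 (1864, 1060 and 859 CPM) and Osr2 (23.4, 20.7 and 13.4 CPM) were highest in replicate 1, as Hoxb6 was. So were Slc9a3 and Slc26a3 of the proximal list and Insl5, Scnn1b, Scnn1g, Hsd11b2 and Nr3c2 of the distal list. Mep1b and Scnn1a were highest in mutant replicate 3 and Sgk1 in mutant replicate 2. Replicate 1 of the mutant was thus highest for genes of both lists.

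By genotype none of 7 tested distal genes passed edgeR, 1 had an unadjusted p under 0.05 and 0 passed the DESeq2 Wald test (median −0.13), with Scnn1b at −0.45 ± 0.19 (edgeR adjusted p = 0.233) and Insl5 at −0.50 ± 0.34 (edgeR adjusted p = 0.471). Of 5 tested proximal genes none passed edgeR, 0 had an unadjusted p under 0.05 and 0 passed the DESeq2 Wald test (median −0.071). Car1 was at −0.37 ± 0.38 (edgeR adjusted p = 0.651) and Slc26a3, a chloride and bicarbonate exchanger, at −0.28 ± 0.32 (edgeR adjusted p = 0.686).

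Outside the Hox genes, the genes nearest in pattern to the posterior minus anterior value over the 6 libraries included Bmp2, a secreted growth factor of the crypt surface, and Abtb2. Nearness was the root mean square difference of centred log2 CPM, which was 0.097 for Bmp2 and 0.15 for Abtb2, where the pattern itself had a root mean square of 0.45. Bmp2 had 48.7, 18.3 and 23.9 CPM in wild type and 30.5, 24.7 and 34.8 CPM in mutant replicates 1, 2 and 3. Both were among the nearest 3 in a search of 14691 genes over 6 libraries.

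**Figure D4:**
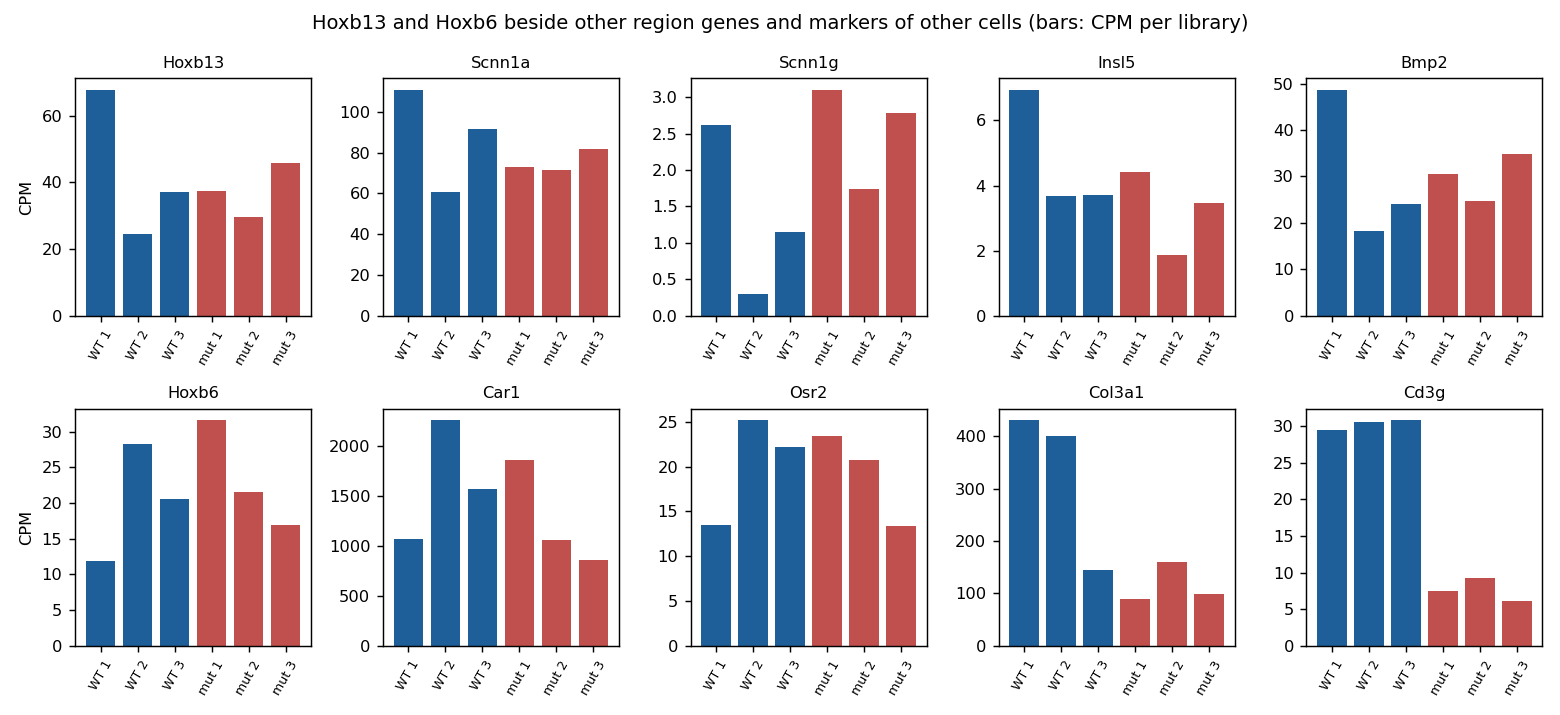
CPM per library (bars from 0, WT for wild type and mut for mutant) of Hoxb13 and Hoxb6 beside other genes. These are region genes, Bmp2, the fibroblast collagen gene Col3a1 and the T cell marker gene Cd3g. Among the wild type libraries Car1 and Osr2 have the order of Hoxb6, which the other 3 tested proximal genes (not drawn) do not, Bmp2 has the order of Hoxb13, and Cd3g separates the genotypes.

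Markers of other cells moved between these libraries, and their part in the Hox values was not tested. Epithelial identity genes, all 10 tested, had sums of 4604 to 5655 CPM in wild type and of 4613 to 5409 CPM in the mutant, with none past edgeR, 1 at an unadjusted p under 0.05 and 0 past the DESeq2 Wald test. Of 10 fibroblast markers Mfap5 fell (−1.75 ± 0.39, edgeR adjusted p = 0.0434), 5 had an unadjusted p under 0.05, and the median was −1.32. The Mfap5 call ended when any of wild type replicates 1 and 2 and mutant replicates 2 and 3 was left out (edgeR adjusted p = 0.100 to 0.151) and with dispersions not robust (0.0523). Fibroblast markers had sums of 403 to 1134 CPM in wild type and of 270 to 595 CPM in the mutant. Wild type replicates 1 and 2, at opposite ends of the wild type range of Hoxb13 and Hoxb6, had fibroblast sums of 1134 and 1035 CPM. Wild type replicate 3 had 403 CPM. Mutant replicate 1, with the most Hoxb6 of all libraries, had 270 CPM. T cell and intraepithelial lymphocyte markers fell in 10 of 10. Over all genes tested 1.52% were called lower, the share to set beside every count of fallen markers here. The T cell list had sums of 424 to 516 CPM in wild type and of 183 to 209 CPM in the mutant. That split of libraries, also seen for Hoxa5, is the split by genotype. It was found in 12.3% of all genes tested with the mutant higher and in 11.8% with the mutant lower. Smooth muscle markers summed to 11.2 to 14.7 and 10.6 to 14.3 CPM, with Actg2 and Myl9 below the filter, and neuron and glia markers to 3.73 to 4.46 and 3.86 to 5.72 CPM. Endothelial markers summed to 13.1 to 16.3 and 14.6 to 15.5 CPM, with Vwf risen (0.96 ± 0.18, edgeR adjusted p = 0.0169). The rest of the tested endothelial markers, Kdr (−0.77), Tek (−0.80) and Pecam1 (−0.16), had negative differences and did not pass. The median of the 4 tested was −0.47. B and plasma cell markers summed to 28.7 to 55.2 and 45.8 to 58.9 CPM. Macrophage and dendritic cell markers summed to 84.3 to 99.1 and 65.5 to 121 CPM, with Itgax (−0.99 ± 0.20) and Tyrobp (−1.11 ± 0.24) fallen. The rest of that list, Csf1r (−0.24), Cd68 (−0.11), Lyz2 (−0.0095), Adgre1 (0.053) and Cd14 (0.14), did not pass. The median of the 7 tested was −0.11. The Vwf call ended when wild type replicate 2 or any mutant library was left out (edgeR adjusted p = 0.0522 to 0.0719). That of Itgax ended under the replicate block (0.0558) and when wild type replicate 2 or mutant replicate 2 or 3 was left out (0.0749 to 0.100), and that of Tyrobp under the block (0.0634) and when any library but wild type replicate 1 was left out (0.0516 to 0.0969).

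Small intestine genes had 16 tested members with 1 risen, against 1.04% of all genes tested, and a median of 0.94. The risen gene was Apoc3, an apolipoprotein (2.13 ± 0.48, edgeR adjusted p = 0.0433). Of the 16, 9 had an unadjusted p under 0.05, and 4 passed the DESeq2 Wald test, which 672 genes passed over the whole table. The groups did not overlap in 6 with the mutant higher, against 12.3% of all genes tested, and in 2 with the mutant lower, against 11.8%. The 6 were Apoc3, Fabp1, Apoa4, Lct, Alpi and Defa24, which split the libraries as Hoxa5 does. The 2 were Fabp6 (−1.76 ± 0.71, edgeR adjusted p = 0.244) and Apob (−0.34 ± 0.11, edgeR adjusted p = 0.135), which go the other way. Slc10a2 (−0.83 ± 0.44, edgeR adjusted p = 0.393) also had a negative difference, with overlapping groups. The list thus did not move in 1 direction. Fabp1, a fatty acid binding protein gene, had 7.87, 9.02 and 14.8 CPM in wild type and 17.7, 53.5 and 23.5 CPM in mutant replicates 1, 2 and 3. The summed level of the list was highest in mutant replicate 2 (1073 CPM, against 713 to 905 CPM in the other 5 libraries). Hoxa5 was also highest in that library. Without it the Hoxa5 call ended, and calls over all genes went from 430 to 174. The list sums of mutant replicates 1 and 3 (809 and 803 CPM) lay within the wild type range of 713 to 905 CPM, where Hoxa5 in these libraries did not. For Apoc3 the call ended when any of wild type replicates 1 and 2 and mutant replicates 2 and 3 was left out (edgeR adjusted p = 0.115 to 0.160). The part of small intestine RNA in the level of Hoxa5 was not tested.

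Noncoding genes of the clusters were chosen after their values were seen. Hottip, an RNA from the posterior end of the Hoxa cluster, had 6.44, 2.72 and 5.66 CPM in wild type and 5.38, 4.86 and 6.94 CPM in mutant replicates 1, 2 and 3, lowest in wild type replicate 2 as Hoxa13 was. Hoxa11os, which lies antisense to Hoxa11, had 6.81, 4.03 and 7.75 CPM in wild type and 11.6, 9.72 and 10.4 CPM in mutant replicates 1, 2 and 3. Its groups did not overlap and the difference was 0.78 ± 0.22 (edgeR adjusted p = 0.0905). Hotair, an RNA of the Hoxc cluster, had 0 reads in every library.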

How the data were processed

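RNA-seq libraries of 3 wild type and 3 mutant colon epithelial fractions were prepared with a stranded total RNA kit with ribosomal RNA depletion, per the labels' protocols. Reads were handled with Trimmomatic 0.39, STAR, HTSeq and DESeq2 on GRCm38, per the submitters' processing notes. The authors deposited raw counts per gene. Rows that name no gene held 56.6% to 61.0% of all counted and were left out. In the authors' deposited table, normalized counts (a signal) were the raw count multiplied by a library's own factor, in 100% of cases (relative tolerance 1e-06), and log2 fold changes, a test statistic (a score) and p-values stand beside them.

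Genotypes were compared on these counts by edgeR 4.0.16 (R 4.3.3) (filterByExpr with a minimum count of 10, TMM, robust quasi-likelihood F test, Benjamini-Hochberg over 16757 genes, threshold 0.05). DESeq2 1.42.0 was an alternative. On simulated data of 16401 genes the fit recovered 72% of 2-fold and 92% of 4-fold changes, with 27 false calls. Log2 CPM used a prior count of 2. Gene reads were 7060769 to 28029583 per library. The members and all lists were chosen with earlier results of these data known. Counts of list members with an unadjusted p under 0.05 are given without the share over all genes, so they do not show an excess. Named beside the 10 members were the other tested Hox genes, called list members or, in a list without a call, up to 2 by smallest p, and the 3 genes nearest to the posterior minus anterior pattern; a few genes that this rule or a list names are not reported here. Alternatives were other normalizations, filters and tests, a replicate block, other groupings of Hoxa9, prior counts of 0.5 and 5, and leaving out each library.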

Additional observations from a re-analysis of the deposited data

How the results depend on the processing

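The number of genes called over the whole table was 430, and was 1493 with no filter on low counts, 672 with the DESeq2 Wald test, and 174 to 674 on leaving out 1 library. The lowest count came without mutant replicate 2, the highest without wild type replicate 3, and 180 genes were called without mutant replicate 3. The number of the 10 Hox genes called was 1, and was 3 with no filter and 0 (without mutant replicate 2) to 2 (without mutant replicate 1) on leaving out 1 library. Hoxa5 was called by edgeR or DESeq2 in 13 of 14 alternatives, with a log2 fold change of 0.79 to 1.11 over them. Hoxa9 was called with no filter (adjusted p = 0.0172). The cause of these changes was not tested. The difference in posterior share ran from −11.6 to 3.47 percentage points on leaving out 1 library and from −7.54 to −2.91 under other groupings and weights. The posterior minus anterior difference ran from −0.23 to 0.45 on leaving out 1 library, and was −0.048 with Hoxa9 counted as anterior, −0.022 with Hoxa9 left out and −0.020 with a prior count of 5. On leaving out 1 library, log2 fold changes crossed 0 for Hoxa2 (−0.15 to 0.54), Hoxa10 (−0.22 to 0.13), Hoxa11 (−0.55 to 0.36), Hoxa13 (−0.28 to 0.32), Hoxb3 (−0.26 to 0.37), Hoxb4 (−0.042 to 0.47), Hoxb5 (−0.39 to 0.22), Hoxb6 (−0.087 to 0.54), Hoxb13 (−0.48 to 0.28), Hoxd4 (−0.51 to 0.29), Hoxd11 (−0.15 to 0.41), Hoxd13 (−0.21 to 1.21), Myh11 (−0.15 to 0.70) and Ret (−0.088 to 0.37), none of them called. The labels do not say that replicate numbers pair the libraries. Same-numbered deviations correlated at −0.13, 0.13 and −0.022 across genes, which with 3 libraries per group cannot decide whether they do. With the replicate number as a block the count over all genes was 360, the count of the 10 Hox genes was 1, and Hoxa13 (0.013) and Hoxb3 (0.077) changed sign. Depth limits Hoxd10 and Hoxd11 most, since 3 reads are 0.207 to 0.374 CPM in mutant libraries.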
